A study of Mus musculus with 12 samples.

Results

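Serpins are a family of proteins that mostly block serine or cysteine proteases. The protease cuts an exposed reactive centre loop of the serpin, the loop then folds into the body of the molecule, and the enzyme is trapped in a complex that cannot be released. In tumors the family is best known for its control of plasminogen activation at the cell surface, for the protection of cells from granzymes and leaked lysosomal proteases, and for members that have given up inhibition, such as the collagen chaperone HSP47. Serpin genes were taken as all rows of both deposited tables whose mouse symbol begins with Serpin, without the complement inhibitor Serping1. This gave 15 of 17285 genes, present in both tables. The annotation used here (GENCODE M21 on GRCm38) holds 60 protein-coding serpin genes by the same rule. Of these, 7 of 26 clade B genes (mostly intracellular), and 2 of 24 clade A genes (mostly secreted) had a row, and the remaining members came from clades C, E, F, H and I. The other annotated serpin genes were not analysed here. By the authors' naming, the rows of both tables had passed a filter, whose rule is not stated in the sources used here.

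The RNA came from #781, a melanoma line isolated from tumors of C57BL/6 mice carrying Tyr-CreERT2 and an inducible oncogenic BRAF allele, among other alleles. These alleles are shared by all groups. Poly(A) RNA of 12 samples was sequenced, with 3 samples in each of 4 groups: tumors of Nfe2l2 knockout cells, tumors of Nfe2l2 wildtype cells, cultured Nfe2l2 knockout cells and cultured Nfe2l2 wildtype cells. The knockout was made with 2 guide RNAs, and by the study's methods 1 set of knockout and control cells was injected under the skin of young C57BL/6 mice of both sexes with a working immune system, so host cells are part of every tumor. Whether the cultured samples came from separate cultures, and from the injected set, is not stated in the labels. The level used below is the authors' mean log2 CPM (the log2 of read counts scaled to library size), 1 mean per gene for the tumors and 1 for the cultured cells. Both genotypes are pooled in it. The fold changes and p-values of the authors' knockout comparison were not used, so no statement on the effect of NRF2, the protein of Nfe2l2, and no check of the knockout is made. A pooled mean carries no spread, so no level below has an error, no difference was tested, and the depth of the samples is unknown. Tumors and cultured cells were normalized in separate tables, and culture differs from tumor in host cells, in growth conditions and possibly in the set of cells, which cannot be told apart.

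The reactive centre loop is the part of an inhibitory serpin that the protease attacks, and its coding bases can be compared between members. A stretch of 21 codons was therefore read from the GENCODE M21 coding sequence of each member, beginning at the glutamate codon of the hinge, the flexible base of the loop. By the usual spacing, the bond that the protease attacks lies between codons 17 and 18 of this stretch. These codons are shown in capitals for 8 members that are described below. Coordinates are on GRCm38, and each sequence runs 5′ to 3′ on the coding strand, which is the minus strand for Serpine2 and Serpinb6a and the plus strand for the others. The order is Serpine2 (chr1:79794197-79861180) and Serpinb2 (chr1:107511423-107535478), then Serpinb6a (chr13:33917918-34002794), Serpinb8 (chr1:107590006-107610484), Serpinb9 (chr13:33003250-33017957) and Serpinb9b (chr13:33027416-33041884), and last Serpina3n (chr12:104406729-104414329) and Serpina3g (chr12:104236245-104241939).
Serpine2: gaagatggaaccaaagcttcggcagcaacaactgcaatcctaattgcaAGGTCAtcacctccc
Serpinb2: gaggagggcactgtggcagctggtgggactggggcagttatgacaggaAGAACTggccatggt
Serpinb6a: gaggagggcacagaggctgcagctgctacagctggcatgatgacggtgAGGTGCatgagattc
Serpinb8: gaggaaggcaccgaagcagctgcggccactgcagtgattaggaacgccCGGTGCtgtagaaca
Serpinb9: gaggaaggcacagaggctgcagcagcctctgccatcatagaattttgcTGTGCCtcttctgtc
Serpinb9b: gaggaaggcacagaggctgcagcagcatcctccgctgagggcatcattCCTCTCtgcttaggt
Serpina3n: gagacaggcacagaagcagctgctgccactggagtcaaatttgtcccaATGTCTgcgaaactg
Serpina3g: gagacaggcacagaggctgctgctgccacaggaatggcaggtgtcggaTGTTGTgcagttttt

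Hinge codons (glutamate, any residue, glycine, threonine or serine, any residue, alanine) were found in 13 of the 15 members. The 2 members without them were Serpinf1 and Serpinh1, whose proteins are known not to inhibit proteases. Codon 17 was an arginine codon in 8 members (among them Serpine2, Serpinb2, Serpinb6a, Serpinb6b, Serpinb8, Serpinc1 and Serpini1), which is the residue that trypsin-like enzymes such as plasminogen activators and thrombin cut after. It encoded cysteine in Serpina3g, Serpinb1a and Serpinb9, methionine in Serpina3n and proline in Serpinb9b. Within pairs of close relatives the loop stretch was less alike than the coding sequence as a whole. Serpinb9 and Serpinb9b were identical at 86.2% of 1119 aligned coding bases, against 58.7% of the 63 bases of the loop stretch. For Serpinb6a and Serpinb6b the identity was 86.2% of 1128 coding bases and 71.4% of the loop stretch. For Serpina3n and Serpina3g it was 84.7% of the 648 coding bases that could be aligned, of 744 annotated for Serpina3g, and 66.7% of the loop stretch.

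Most of the 15 serpin RNAs with a row had a higher mean level in tumors than in cultured cells. The mean log2 CPM was higher in tumors by more than 1, a difference of more than 2-fold, for 9 of 15 members (60%), against 16.6% of all 17285 genes. It was lower by more than 1 for 1 member, Serpinb9b (6.67%), against 3.96% of all genes. The other 5 members differed by less than 1. The difference, tumors minus cultured cells, had a median of 1.59 over the members and 0.10 over all genes. It was above 0 for 12 of the 15 members, against 55.9% of all genes, and below 0 for Serpini1, Serpinh1 and Serpinb9b. The median level of the members was 4.18 in tumors and 0.89 in cultured cells, while that of all genes was 4.30 in tumors and 4.11 in cultured cells. Thus 12 members (80%) stood above a mean log2 CPM of 1 in tumors, near the 82.2% of all genes. In cultured cells 7 members (46.7%) stood above it, against 74.8% of all genes. Low levels in culture go with higher values in tumors across the whole table: of the 4363 genes whose cultured level was at most 1, 41.6% were higher in tumors by more than 1, and of the 12922 genes above it 8.16%. Among the serpins, these counts were 6 of 8 members and 3 of 7 members. The lowest value of the table was held by 523 genes in cultured cells and by 8 in tumors. Genes silent in culture may thus have a row only through the tumors. The counts hold for the members that passed the authors' filter and not for the whole family.

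**Figure D1:**
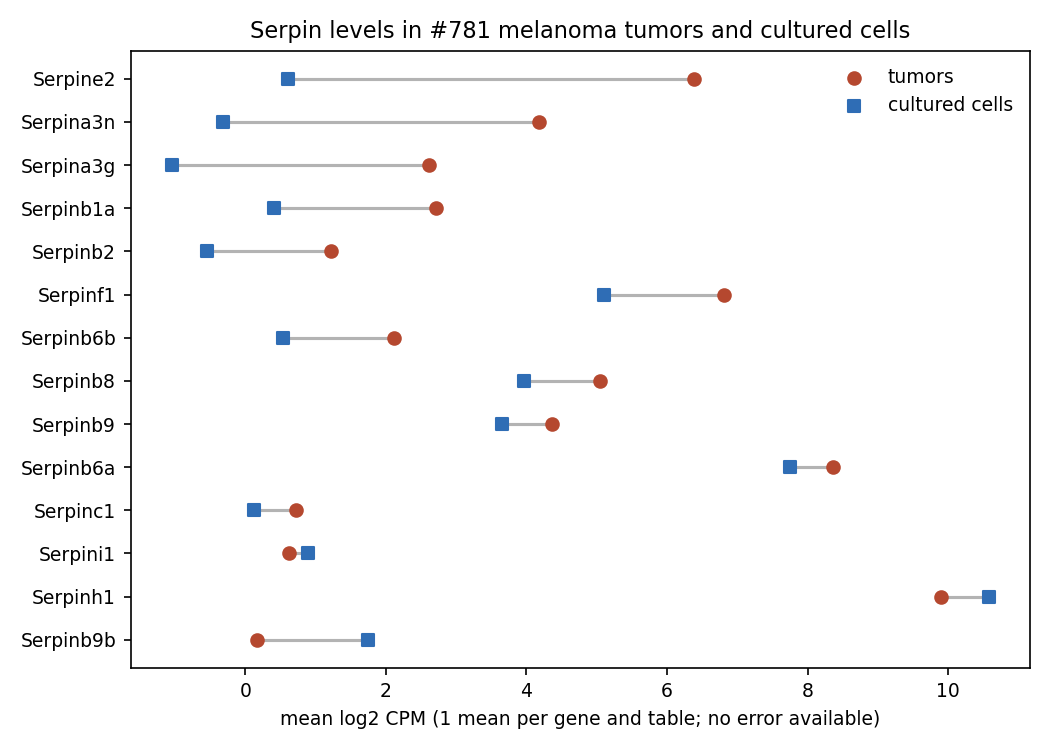
Mean log2 CPM (x axis) of 14 of the 15 serpin genes in tumors (circles) and cultured cells (squares), 1 pooled mean per gene and table with no error, ordered by the difference. The lines reach furthest for Serpine2, Serpina3n and Serpina3g, and only Serpini1, Serpinh1 and Serpinb9b have the tumor value on the left.

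**Figure D2:**
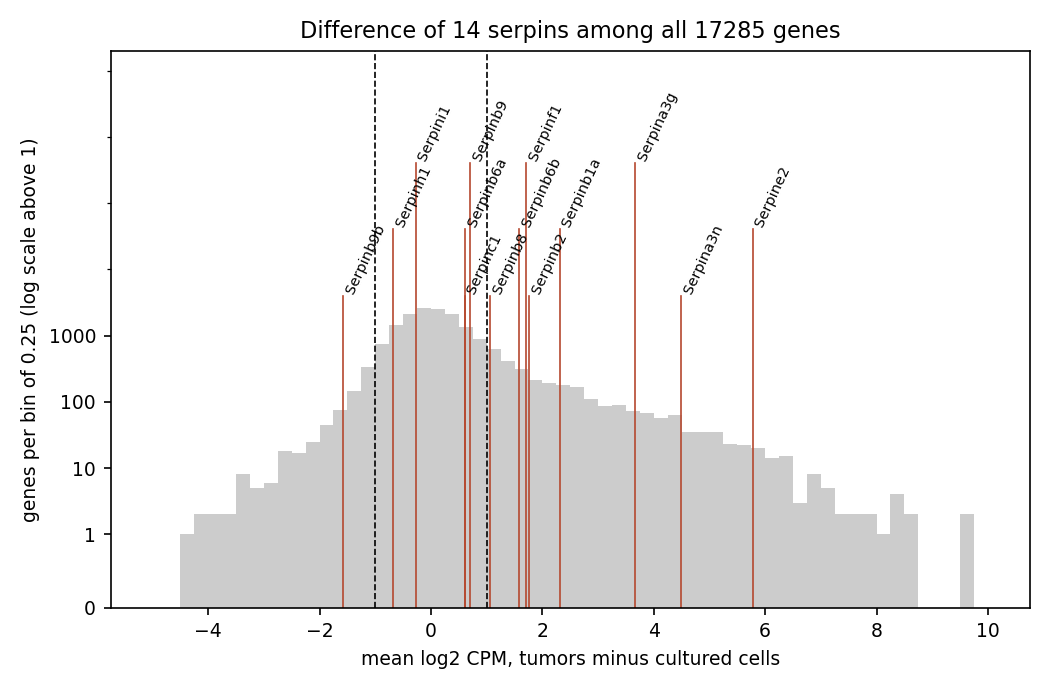
Difference of the mean log2 CPM, tumors minus cultured cells (x axis), for all 17285 genes (grey bars, genes per bin of 0.25, log scale above 1) with 14 of the 15 serpins as red lines and dashed lines at -1 and 1. Of the serpins drawn, 8 lie right of 1 and 1, Serpinb9b, lies left of -1.

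Among the inhibitors of plasminogen activators and thrombin, 3 of 5 measured genes (60%) were higher in tumors by more than 1, against 16.6% of all genes. None was lower, and the median difference was 1.76. In culture 4 of the 5 were at most 1, and of all genes at such levels 41.6% were higher in tumors. Serpine2, which encodes protease nexin-1, an inhibitor of thrombin and of urokinase, had a mean log2 CPM of 6.39 in tumors and 0.61 in cultured cells. This difference of 5.78 was the largest of the family and higher than that of 99.6% of all genes. Per kilobase of transcript its level was 5.25 on the log2 scale in tumors and -0.53 in cultured cells. Serpinb2, which encodes PAI-2 and is typical of activated macrophages and keratinocytes, had 1.21 in tumors and -0.55 in cultured cells, a difference of 1.76 between low levels. Serpinc1, the gene of antithrombin, a plasma protein made by the liver, was at 0.73 in tumors and 0.12 in cultured cells. Serpini1, which encodes neuroserpin, an inhibitor of tissue plasminogen activator in neurons, had 0.61 in tumors and 0.89 in cultured cells. The last pair of genes differed between tumors and culture by less than 1.

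Other genes of the plasminogen activation and thrombin system, of which only some encode targets of these inhibitors, were in part higher in tumors as well. Of 12 measured genes of the plasminogen activation and thrombin list, 6 (50%) were higher in tumors by more than 1, against 16.6% of all genes. In this list 1 gene was lower, and the median difference was 1.09. The highest mean log2 CPM, with no account of length, belonged to Lrp1, an endocytic receptor that clears complexes of serpins and proteases (10.84 in tumors and 10.11 in cultured cells), Anxa2 (10.15 in tumors and 9.79 in cultured cells) and S100a10 (9.39 in tumors and 8.08 in cultured cells), whose products together bind plasminogen at the cell surface. The next genes were chosen after their values were seen. Plau, the gene of urokinase, had a mean log2 CPM of 6.57 in tumors and 4.30 in cultured cells. Its receptor gene Plaur had 7.17 in tumors and 4.39 in cultured cells, and Plat, the gene of tissue plasminogen activator, 6.86 in tumors and 5.23 in cultured cells. The differences of Plau and Plaur (2.27 and 2.78) were smaller than the 5.78 of Serpine2. The tissue factor gene F3, the starter of clotting, was the member lower in tumors, at 3.65 in tumors and 4.75 in cultured cells.

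Both clade A members, from the Serpina3 cluster on chromosome 12, were near or at the bottom of the table in culture and measurable in tumors. Serpina3n, whose secreted product inhibits leukocyte proteases and is a known acute-phase gene of the liver and of reactive astrocytes, had a mean log2 CPM of 4.18 in tumors and -0.31 in cultured cells. The difference of 4.50 was higher than that of 98.7% of all genes. Serpina3g, which encodes an intracellular inhibitor of cysteine cathepsins known from activated T cells and other blood cells, had 2.62 in tumors and -1.05 in cultured cells. Its cultured level is the lowest value of that table, shared by 523 genes, so that its difference of 3.67 depends on how counts near 0 entered the authors' scale. The cluster is made of near copies. Of the 50-base stretches of its longest transcript, 16.0% in Serpina3g and 6.90% in Serpina3n were found unchanged in transcripts of other genes, 7 serpin genes or pseudogenes for each. How the authors treated reads that map to several genes is not stated, and these levels are uncertain to that extent.

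The clade B serpins, which lack a classical signal peptide and act mostly inside cells, ran from 1 of the most abundant members of the family to some of its scarcest. Together with both clade A members, the clade B members other than Serpinb2 make up the 8 measured inhibitors of leukocyte and lysosomal proteases. Of these, 5 (62.5%) were higher in tumors by more than 1, against 16.6% of all genes. The number lower by more than 1 was 1, and the median difference was 1.33. In culture 4 of the 8 were at most 1, and of all genes at such levels 41.6% were higher in tumors. Serpinb6a, an inhibitor of trypsin-like proteases and cathepsin G found in many cell types, had a mean log2 CPM of 8.36 in tumors and 7.74 in cultured cells, above 97.4% of all genes in tumors and 94.7% in cultured cells. Its close relative Serpinb6b had 2.12 in tumors and 0.53 in cultured cells. Serpinb8, whose human counterpart inhibits furin, had 5.04 in tumors and 3.97 in cultured cells. Its difference of 1.07 was the smallest above 1, and it went below 1 (0.97) when the differences were centred on the median of all genes. Serpinb1a, which protects neutrophils and other myeloid cells from elastase and cathepsin G, had 2.72 in tumors and 0.41 in cultured cells.

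Serpinb9 and Serpinb9b, neighbours 9.46 kb apart on the plus strand of chromosome 13, had differences of opposite sign. Serpinb9, the inhibitor of granzyme B that shields cytotoxic lymphocytes, dendritic cells and some tumor cells from cytotoxic granules, had a mean log2 CPM of 4.36 in tumors and 3.66 in cultured cells. Serpinb9b, a mouse paralog of Serpinb9, had 0.16 in tumors and 1.74 in cultured cells. It was the only member lower in tumors by more than 1, and only 1.01% of all genes had a smaller difference. Both its levels were low, above 8.46% of all genes in tumors and 30.2% in cultured cells. Per kilobase of transcript, the level of Serpinb9b minus that of Serpinb9 was -4.10 on the log2 scale in tumors and -1.83 in cultured cells. Fewer than 1% of the 50-base stretches of either gene (0.380% for Serpinb9 and 0.499% for Serpinb9b) occurred in other genes. The loop stretches printed above share 37 of 63 bases, and the codon at the reactive position encodes cysteine in Serpinb9 and proline in Serpinb9b. All 5 members on chromosome 13 lie within 1.16 Mb, and 4 of them had differences above 0, of 2.31 for Serpinb1a, 1.59 for Serpinb6b, 0.70 for Serpinb9 and 0.61 for Serpinb6a, while Serpinb9b was the only one below 0.

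The list of leukocyte and lysosomal proteases, the enzymes that these serpins meet, also held Furin, which is of neither kind. Many of its genes stood at the lowest value in culture. Of 14 measured genes of this list, 10 (71.4%) were higher in tumors by more than 1, against 16.6% of all genes. None was lower, and the median difference was 2.40. In culture 8 of the 14 were at most 1, and of all such genes 41.6% were higher in tumors. Genes at the lowest value in culture could not come out lower in tumors, so the count says little about proteases as such. Gzmb, the gene of granzyme B, had a mean log2 CPM of 2.62 in tumors and the lowest value, -1.05, in cultured cells. The same lowest value in culture was held by 5 more of these genes, namely Gzma, Prtn3 and the mast cell chymase genes Mcpt2, Mcpt4 and Cma1. The lysosomal cathepsin gene Ctss had 7.70 in tumors and -0.64 in cultured cells. These genes were chosen after their values were seen. The 3 genes of the list with the highest mean log2 CPM were high in both materials: Ctsb, the gene of cathepsin B, at 10.63 in tumors and 9.41 in cultured cells, Ctsl, the gene of cathepsin L, at 10.53 in tumors and 10.23 in cultured cells, and Furin, at 8.07 in tumors and 7.58 in cultured cells.

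Of the non-inhibitory members, Serpinh1 was the most abundant serpin in both materials. It encodes HSP47, a chaperone of the endoplasmic reticulum that binds and stabilizes procollagen, and lies on chromosome 7 from 99345376 to 99353239. Its mean log2 CPM was 9.90 in tumors and 10.58 in cultured cells, above 99.5% of all genes in tumors and 99.8% in cultured cells. Thus the level in tumors was 0.625 times that in culture. Of 17 measured genes of its partners in collagen folding, 3 (Col1a1, Col6a1 and Plod1) were higher in tumors by more than 1 and none was lower. This share of 17.6% was near the 16.6% of all genes, and the median difference of 0.22 was near the 0.10 of all genes. Col1a1, a chain of type I collagen, had 10.88 in tumors and 9.70 in cultured cells. The matrix protein gene Sparc, with the highest mean log2 CPM of the list, had 11.32 in tumors and 11.10 in cultured cells, and Col3a1, of type III collagen, 10.74 in tumors and 9.79 in cultured cells. On the same side of 0 as Serpinh1 were 4 of the 17 genes, chosen after their values were seen: Fkbp10 (-0.60), P4hb (-0.38) and Crtap (-0.36), all helpers of collagen folding, and the collagen gene Col5a2 (-0.09). Serpinf1, on chromosome 11 from 75409769 to 75422701, encodes PEDF, a secreted factor known to restrain vessel growth. It had 6.82 in tumors and 5.10 in cultured cells, 3.28-fold higher in tumors.

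**Figure D3:**
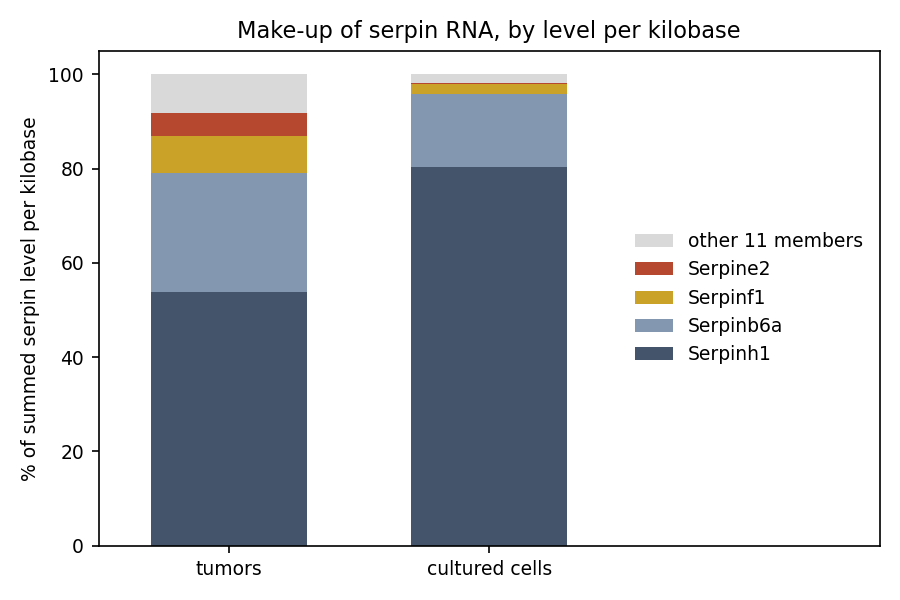
Share of Serpinh1, Serpinb6a, Serpinf1, Serpine2 and all other members together in the summed serpin level per kilobase. The left bar is for tumors and the right bar for cultured cells. The y axis is % of the sum over 15 members of 2 to the power of the mean log2 CPM, divided by transcript length. Serpinh1 and Serpinb6a together fill 79.1% of the tumor bar and 95.8% of the culture bar.

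Per kilobase of transcript, the members spanned 10.30 on the log2 scale in tumors and 11.59 in cultured cells. Serpinh1 made up 53.8% of the summed serpin level per kilobase in tumors and 80.3% in cultured cells, and Serpinb6a 25.3% in tumors and 15.5% in cultured cells. The 13 other members together took 20.9% in tumors and 4.20% in cultured cells. Of this, Serpinf1 took 7.86% in tumors and 2.24% in cultured cells, and Serpine2 4.85% in tumors and 0.0825% in cultured cells. The order of the first 3 members (Serpinh1, Serpinb6a, Serpinf1) was the same in both materials. Serpine2 was 4th in tumors (5th by coding length) and 9th in cultured cells, while Serpinb9b was 14th in tumors and 7th in cultured cells. Since no level has an error, neighbours in this order cannot be told apart. Across the 15 members, the levels per kilobase in tumors and in cultured cells had a Spearman rho of 0.74, a description of genes measured in pooled samples and not of replicates.

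Members higher in tumors were found with several codons at the reactive position. Of the 8 members with an arginine codon there, 5 were higher in tumors by more than 1 and none was lower, with a median difference of 1.33. Of the 5 members with another codon, 3 were higher and 1 was lower, with a median difference of 2.31. Over all genes, 16.6% were higher and 3.96% were lower, with a median difference of 0.10. These small counts of members are descriptions.

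Most measured markers of host cells were higher in tumors than in cultured cells. In culture, 13 of 14 leukocyte, 8 of 8 endothelial, 6 of 7 fibroblast and 4 of 4 skeletal muscle markers were at most 1. Of all genes at such levels, 41.6% were higher in tumors. Markers at the lowest value in culture could not come out lower in tumors, so the counts below were in part fixed in advance. All 14 measured leukocyte markers of 18 listed were higher in tumors by more than 1. Their summed CPM was 991 in tumors and 8.73 in cultured cells, where 9 of them, among them Lyz2, C1qa and C1qb, stood at the lowest value, and Ptprc, the pan-leukocyte marker CD45, was at -0.73. All 8 endothelial markers were higher in tumors, with a summed CPM of 194 in tumors and 4.71 in cultured cells, where Kdr, Tie1 and Cldn5 stood at the lowest value. So were all 7 fibroblast markers, with a summed CPM of 776 in tumors and 18.9 in cultured cells, most of it in culture from Pdgfra at a mean log2 CPM of 3.83, while Lum stood at the lowest value and Dcn at -0.55. All 4 measured skeletal muscle markers of 5 listed were higher in tumors as well (summed CPM 16.8 in tumors and 2.58 in cultured cells). Of 4 measured keratinocyte markers of 8 listed, 2 were higher in tumors (summed CPM 10.3 in tumors and 5.79 in cultured cells, where Krt5 stood at the lowest value). Of 2 measured platelet and megakaryocyte markers of 4 listed, 1 was higher, Pf4, at a mean log2 CPM of 3.46 in tumors and the lowest value in cultured cells (summed CPM of both 16.0 in tumors and 3.82 in cultured cells). A single hepatocyte marker of 6 had a row, Apoa2, at -0.07 in tumors and 0.12 in cultured cells. The part of host cells in the higher serpin levels of tumors was not tested, and in whole tumors the number of cells of a type and the RNA per cell cannot be told apart. The labelled melanoma origin could be checked only in part: of 8 melanocyte lineage genes, Sox10, Dct, Tyr, Tyrp1 and Mlana had no row in these tables. The others had Mitf at 4.23 in tumors and 2.67 in cultured cells, Ednrb at 4.71 in tumors and -0.93 in cultured cells, and the pigment gene Pmel at 0.05 in tumors and -0.31 in cultured cells. Only Mitf of these stood above a mean log2 CPM of 1 in cultured cells.

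**Figure D4:**
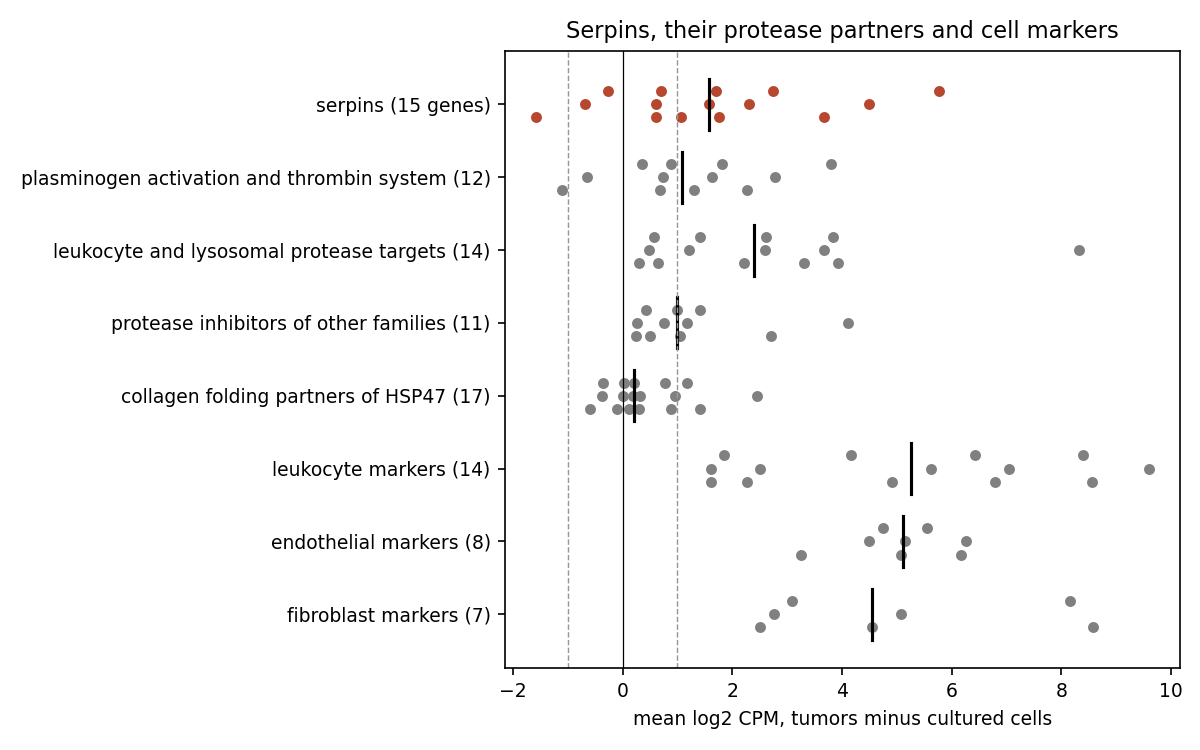
Difference of the mean log2 CPM, tumors minus cultured cells (x axis), for each gene (point) of the serpins, of 4 lists of proteases and other partners and of 3 lists of host cell markers, with the number of measured genes in brackets, the median as a black bar and dashed lines at -1 and 1. The serpins (median 1.59) spread on both sides of 0, whereas all leukocyte, endothelial and fibroblast markers lie right of 1.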

How the data were processed

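Poly(A) RNA of tumors and cultured cells was sequenced (RNeasy extraction, NEBNext Ultra II libraries). Bowtie2 2.3.2, TopHat2 2.1.1, FastQC and the build mm10 are listed by the submitters' processing notes. For the counting program, annotation and test, no name is given in the sources used here. The authors deposited 1 mean log2 CPM per gene and table, read here as the mean over both genotypes, the usual meaning of such a column, which is not stated. Which table holds tumors follows the authors' naming and was checked against host cell markers. The same tables hold the log2 fold change, p-value and adjusted p-value of the authors' comparison of genotypes, which were not used. The planned edgeR fits needed counts per sample and were not run.

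The difference of the deposited log2 means, tumors minus cultured cells, was computed for 17285 genes. A difference past 1 in either direction was called, with no test. Levels between genes were compared per 1000 bases of the longest coding transcript of GENCODE M21 on GRCm38, the build that mm10 names. Stretches of 50 bases were searched in all its transcripts, and coding sequences were aligned with Biopython 1.88. Python 3.11.15, numpy 2.4.6, pandas 2.3.3 and matplotlib 3.10.9 were used.

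Members and lists were chosen with earlier results of these data known. The values of 1 member are not reported here, though it is counted among the 15. The other members are named with both levels, and partner lists by counts, medians and their 3 genes with the highest mean log2 CPM. Other partner genes were named after their values were seen. Alternatives were a threshold of 2, differences centred on the median over all genes or over genes above 5 in both tables, only genes above 1 in at least 1 table, and length by coding sequence.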

Additional observations from a re-analysis of the deposited data

How the results depend on the processing

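With a threshold of 2 on the log2 scale, 5 serpins were higher in tumors (33.3%, against 7.57% of all genes) and 0 were lower, in place of 9 and 1. Serpinb9b, the member that was lower, stood at -1.58. Centred on the median over all genes (0.10), 8 were higher and 1 was lower, and centred on the median of the 5925 genes above 5 in both tables (-0.08), 9 were higher and 1 was lower. The median difference was 1.71 over the members above 1 in at least 1 table, and 1.33 without Serpina3g, an alternative chosen after seeing the data. By coding length, 9 of 15 members took another rank in tumors and 9 in cultured cells, by at most 2 and 3 places. No paired analysis was possible because the tables used give 1 pooled mean per gene and no values of single samples, and no replicate could be left out for the same reason. Other normalizations and filters of count fits were not run, since no counts per sample were used. Levels near the bottom of a table depend on how counts near 0 entered the authors' scale, and the depth is unknown.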

Other observations

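Of 11 measured protease inhibitor genes of other families, 5 (45.5%) were higher in tumors by more than 1, against 16.6% of all genes. None was lower, and the median difference was 0.99. In culture 5 of the 11 were at most 1, and of all genes at such levels 41.6% were higher in tumors. Tfpi2, the gene of a matrix-bound inhibitor of plasmin and other trypsin-like proteases, had a mean log2 CPM of 3.72 in tumors and -0.39 in cultured cells. Spint1, which encodes an inhibitor of the hepatocyte growth factor activator, had 1.65 in tumors and the lowest value, -1.05, in cultured cells. The cysteine protease inhibitors Cst3 (8.05 in tumors and 7.61 in cultured cells) and Cstb (6.46 in tumors and 6.20 in cultured cells) had the highest mean log2 CPM of the list, followed by Tfpi, the gene of tissue factor pathway inhibitor (4.99 in tumors and 4.23 in cultured cells). Tfpi2 and Spint1 were chosen after their values were seen.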
